A study of Mus musculus with 6 samples.

Results

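Canonical Wnt feedback and target genes are genes that the β-catenin pathway switches on in many tissues, several of which encode proteins that act back on the pathway. The 10 described here are Axin2, Lef1, Tcf7, Sp5, Nkd1, Notum, Rnf43, Znrf3, Lgr5 and Ccnd1, chosen by name. All 10 of 10 were found among the non-control probes of the arrays through their RefSeq accessions, on 13 probes, and they stand among 19795 tested genes. RNA was compared between trunks of Arid3b-null and of wild-type mouse embryos collected at embryonic day 9.5. Each group has 3 arrays, each of them carrying the pooled RNA of 4 embryos, so 12 embryos per group. The trunk piece ran from the ear vesicle to somite 15 and held the forelimb buds. The labels give no strain, no description of the null allele and no treatment. Arid3b encodes a DNA-binding protein with an AT-rich interaction domain. Each pool is 1 sample, so the spread between arrays is that between pools and not between embryos. In such bulk samples, fewer cells of a type and less RNA per cell cannot be told apart.

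When a Wnt ligand binds a Frizzled receptor with its co-receptor, the complex that destroys β-catenin is held back, and β-catenin joins DNA-bound TCF and LEF factors to turn genes on. Axin2 is a scaffold of that destruction complex, Nkd1 binds Dishevelled, and Notum is a secreted enzyme that takes the lipid off Wnt ligands. Rnf43 and Znrf3 are membrane ubiquitin ligases that remove Frizzled from the cell surface, and Lgr5 is a receptor for R-spondins, which block these ligases. Lef1 and Tcf7 are the DNA-binding partners themselves, Sp5 is a zinc-finger transcription factor, and Ccnd1 encodes cyclin D1. In the embryonic trunk the pathway is known for its part in axis elongation, somites, the dorsal neural tube and the limb ectoderm.

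Levels are the log2 processed signal of the scanner set relative to the 75th percentile of that array, so a level of 0 is that percentile. Each change is the Arid3b-null mean less the wild-type mean. A gene was called when its adjusted p was under 0.05 in limma, a linear model fitted across all genes with Benjamini-Hochberg adjustment. The 75th percentile itself was 617 to 669 signal units on Arid3b-null arrays and 611 to 844 on wild-type arrays, the highest being wild type replicate 1. Arid3b had log2 values of 0.54, 0.65 and 0.46 in Arid3b-null and 2.18, 2.57 and 1.97 in wild type on its brightest probe, a 3.22-fold fall (limma adjusted p = 0.00154). Its other probes read 9.41-fold and 3.72-fold lower, each well above background on 2 of 3 Arid3b-null arrays, and the mean of all 3 probes 4.83-fold lower. Same-numbered arrays of both groups lay on the same slide.

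Of the 10 genes, 4 rose and 1 fell in the Arid3b-null trunks, and 5 did not pass. Sp5, Rnf43, Znrf3 and Lgr5 rose 2.30-fold, 2.05-fold, 1.56-fold and 1.48-fold, while Ccnd1 fell 1.57-fold. Over all tested genes, 13.6% were called higher, 12.9% lower and 26.6% in either direction. The median change was 0.33 on the log2 scale over the 10 genes and -0.04 over all tested genes. The genes that passed were those of the receptor-clearing step, the R-spondin receptor, Sp5 and the cyclin. Axin2, Lef1, Tcf7, Nkd1 and Notum did not pass. The groups did not overlap for 6 genes that were higher in Arid3b-null and for 1 that was lower, against 23.0% and 23.1% of all tested genes and 46.2% in either direction. All 10 genes were well above background on all 6 arrays on the probe used.

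**Figure D1:**
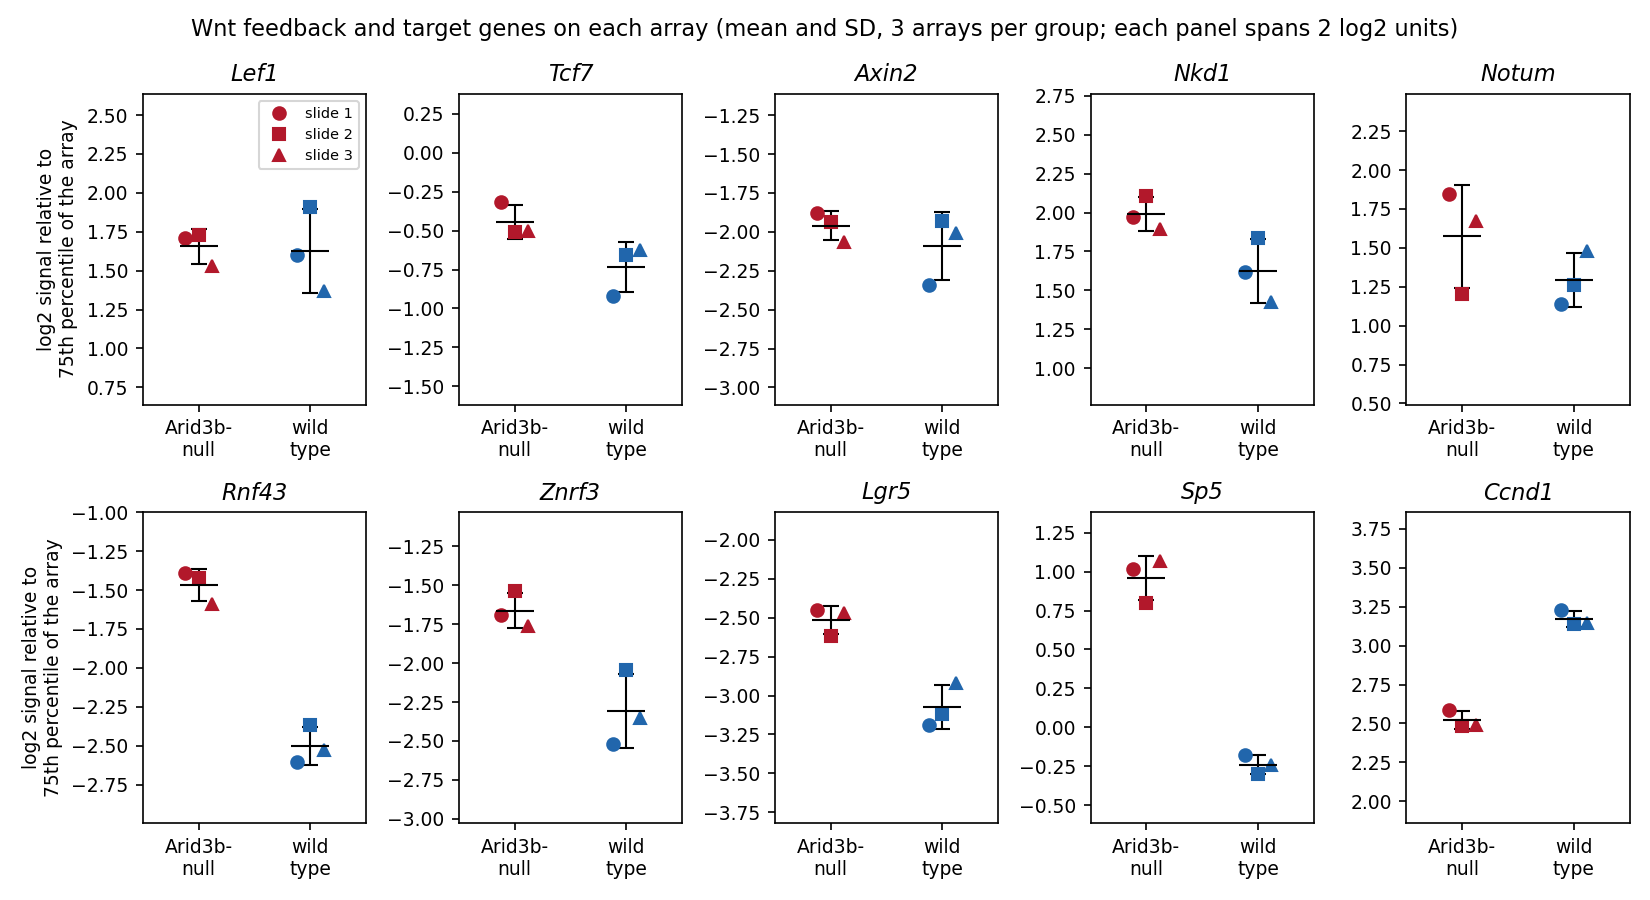
Each panel plots 1 gene, with the log2 signal relative to the array's 75th percentile on the y axis, Arid3b-null on the left and wild type on the right. Points are arrays with a shape per slide, and the bars give the mean and SD of 3 arrays. The groups stand apart for Sp5, Rnf43, Znrf3, Lgr5 and Ccnd1, and also for Tcf7 and Nkd1, which did not pass the test. They overlap for Axin2, Lef1 and Notum.

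Sp5 rose most. Its log2 values were 1.01, 0.80 and 1.07 in Arid3b-null and -0.18, -0.30 and -0.25 in wild type. Every Arid3b-null array was above every wild-type array, with a gap wider than the range of either group. The fitted change was 1.20 ± 0.11 (log2, SE), with a 95% interval of 1.90-fold to 2.78-fold (limma adjusted p = 0.00132). Within the 3 slides the difference was 1.19, 1.10 and 1.31. The Sp5 change ranked 502 from the top among the tested genes.

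Promoter sequence was at hand for 6 of the 10 genes, Axin2, Lef1, Tcf7, Sp5, Nkd1 and Rnf43, in 11 windows of 250 bases that end just before an annotated RefSeq transcript start in build GRCm38.p6. The windows were searched on both strands for the core that TCF and LEF proteins bind, spelled CTTTGAA or CTTTGAT or CTTTGTA or CTTTGTT, words that differ only in their last letters, so that 1 stretch of a strand can match only 1 of them, while matches on opposite strands may overlap. The Sp5 window holds 2 matches and 1 of the 4 Lef1 windows holds 1. The other 9 windows hold none. Over all 32851 windows of the reference table, 14.8% hold a match. A match describes letters and not binding. These windows are shown because they belong to both genes with the largest rises, Sp5 and Rnf43, and to Axin2, whose arrays overlapped between groups. Sequences run 5′ to 3′ along the gene, and capitals mark matches.
Sp5, chr2:70474673-70474922, plus strand: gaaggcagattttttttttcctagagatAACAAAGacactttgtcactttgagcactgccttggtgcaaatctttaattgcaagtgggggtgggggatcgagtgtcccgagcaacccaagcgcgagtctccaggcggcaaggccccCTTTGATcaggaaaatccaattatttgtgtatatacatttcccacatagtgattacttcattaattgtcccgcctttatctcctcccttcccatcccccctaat
Rnf43, chr11:87662837-87663086, plus strand: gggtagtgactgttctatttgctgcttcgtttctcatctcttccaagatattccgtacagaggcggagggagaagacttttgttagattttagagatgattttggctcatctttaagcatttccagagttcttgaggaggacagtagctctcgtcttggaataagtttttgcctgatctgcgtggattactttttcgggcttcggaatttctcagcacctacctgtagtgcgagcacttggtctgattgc
Rnf43, chr11:87699647-87699896, plus strand: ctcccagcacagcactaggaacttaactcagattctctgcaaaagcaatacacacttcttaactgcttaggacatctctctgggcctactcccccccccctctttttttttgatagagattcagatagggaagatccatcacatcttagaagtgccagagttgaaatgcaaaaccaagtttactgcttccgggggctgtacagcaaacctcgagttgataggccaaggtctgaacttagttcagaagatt
Axin2, chr11:108920099-108920348, plus strand: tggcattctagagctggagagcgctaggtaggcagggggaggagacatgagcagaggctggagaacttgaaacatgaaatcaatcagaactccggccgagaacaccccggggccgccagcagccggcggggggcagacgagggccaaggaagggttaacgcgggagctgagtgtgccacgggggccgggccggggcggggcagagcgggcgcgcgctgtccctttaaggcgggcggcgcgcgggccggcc
In the Sp5 window the matches begin 222 and 104 bases before the start, the first as CTTTGTT on the opposite strand and the second as CTTTGAT on the gene's strand.

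Both membrane ligases of the feedback loop rose. Rnf43 had log2 values of -1.39, -1.42 and -1.59 in Arid3b-null and -2.61, -2.37 and -2.53 in wild type. No array of one group reached the other. Its change was 1.03 ± 0.12 (log2, SE), a 95% interval of 1.69-fold to 2.48-fold (limma adjusted p = 0.00221), and the within-slide differences were 1.21, 0.94 and 0.94. The Rnf43 probe was dim, with processed signals of 223 to 238 units in Arid3b-null and 106 to 139 units in wild type. The rise read 1.73-fold with normexp, a model-based background correction, given the array median as background.

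Znrf3, the paralogue of Rnf43, had log2 values of -1.69, -1.54 and -1.76 in Arid3b-null and -2.52, -2.05 and -2.35 in wild type. The Arid3b-null arrays were all above the wild-type arrays, the closest being Arid3b-null replicate 3 (-1.76) and wild type replicate 2 (-2.05). The smallest within-slide difference was 0.51, on slide 2. Its change was 0.64 ± 0.15 (log2, SE), a 95% interval that starts at 1.22-fold (limma adjusted p = 0.0225). The call was lost without Arid3b-null replicate 1 or 2 or wild type replicate 1 or 3 (limma adjusted p = 0.0562, 0.0692, 0.0746 and 0.0615) and when dim probes were kept (0.0837). The change lay between 0.54 and 0.66 in these 5 fits. The Znrf3 probe was also dim, with processed signals of 194 to 213 units in Arid3b-null and 120 to 148 units in wild type. Under normexp with the array median as background the rise read 1.44-fold.

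Lgr5, the R-spondin receptor, had log2 values of -2.45, -2.62 and -2.47 in Arid3b-null and -3.19, -3.12 and -2.92 in wild type. The lowest Arid3b-null array was above the highest wild-type array. The change was 0.56 ± 0.12 (log2, SE), a 95% interval of 1.21-fold to 1.79-fold (limma adjusted p = 0.0162). The Lgr5 probe had processed signals of 101 to 121 units in Arid3b-null and 70.6 to 92.5 units in wild type. Its call was lost without Arid3b-null replicate 1 or wild type replicate 1 or 2 (limma adjusted p = 0.0520, 0.0663 and 0.0517), without a filter on dim probes (0.0711) and with normexp, a model-based background correction, given the array median as background (change 0.36, adjusted p = 0.0695), and under normexp with spots of high background left out (0.32 and 0.135).

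Ccnd1 went the other way. Cyclin D1 drives cells through G1 with Cdk4 and Cdk6. Its log2 values were 2.59, 2.49 and 2.49 in Arid3b-null and 3.23, 3.14 and 3.14 in wild type. Every Arid3b-null array was below every wild-type array, and arrays of 1 group lay close together. The change was -0.65 ± 0.10 (log2, SE), which leaves 63.7% of the wild-type signal (limma adjusted p = 0.00528). The within-slide differences were -0.64, -0.65 and -0.66, the narrowest spread among the 10 genes.

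**Figure D2:**
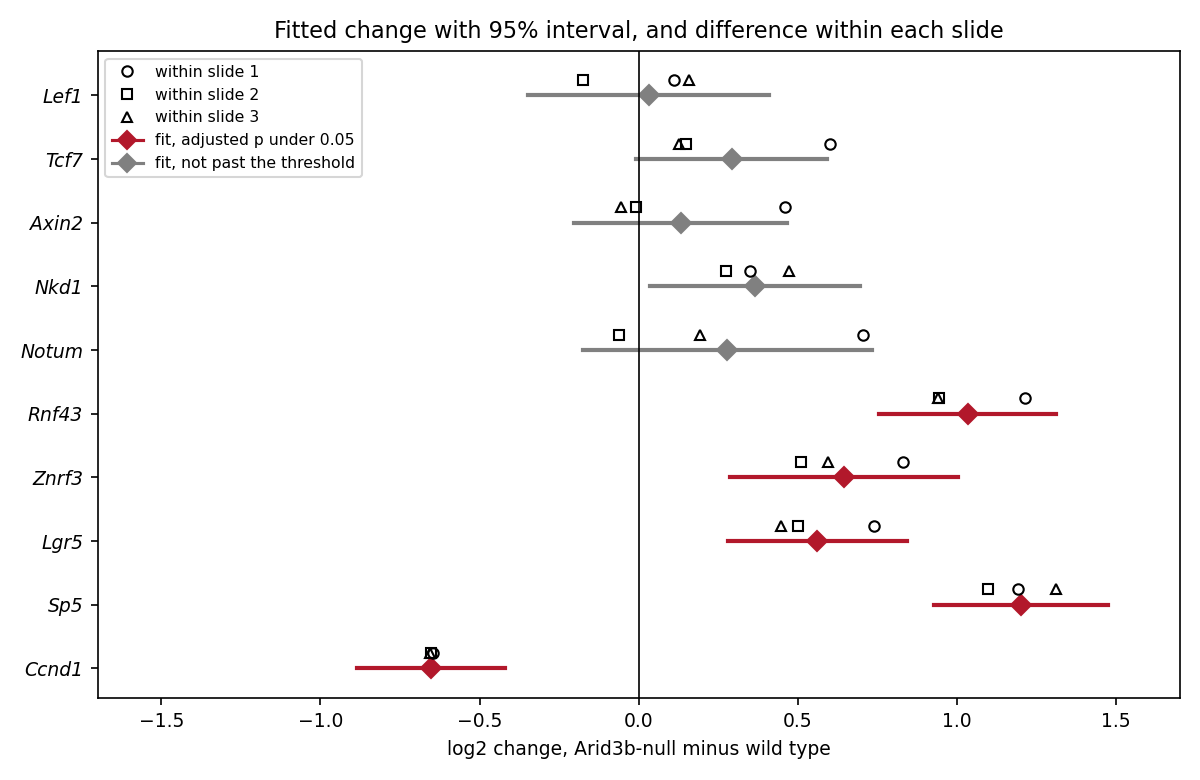
Diamonds and bars give each gene's fitted log2 change, Arid3b-null minus wild type, with its 95% interval, and open symbols give the difference within each of 3 slides. The intervals of Sp5, Rnf43, Znrf3 and Lgr5 lie above 0, as does that of Nkd1, which did not pass after adjustment, and that of Ccnd1 lies below it, while slide 1 gives the highest signed difference for 7 of the 10 genes.

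Axin2, often read as a general report of β-catenin signalling, did not pass. Its log2 values were -1.88, -1.94 and -2.06 in Arid3b-null and -2.34, -1.93 and -2.01 in wild type. The groups overlap, and wild type replicate 1 is the lowest of the 6 arrays. The fitted change was 0.13 ± 0.14 (log2, SE; limma adjusted p = 0.524), and its 95% interval runs from 0.869-fold to 1.38-fold, so it leaves out a change as large as that fitted for Sp5 or Rnf43 but not one as large as Nkd1's. Without wild type replicate 1 the change was 0.01. The within-slide differences were 0.46, -0.01 and -0.05. A second Axin2 probe was well above background on 2 of 3 arrays in each group and was not tested. Its processed signals were 15.2, 6.13 and 34.4 units in Arid3b-null and 17.6, 9.43 and 35.1 units in wild type.

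Nkd1, the Dishevelled-binding inhibitor, had log2 values of 1.97, 2.11 and 1.89 in Arid3b-null and 1.62, 1.83 and 1.42 in wild type. The groups did not overlap, yet the change of 0.37 ± 0.14 (log2, SE) missed the threshold (limma adjusted p = 0.0959), with a 95% interval of 1.03-fold to 1.62-fold. It passed when normexp took the array median as background (adjusted p = 0.0365), also with quantile normalization (0.0118), and when spots of high background were left out (0.0455). The other Nkd1 probe gave 0.48 (adjusted p = 0.133 over all tested probes).

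Notum, the secreted Wnt deacylase, had log2 values of 1.84, 1.20 and 1.67 in Arid3b-null and 1.14, 1.26 and 1.48 in wild type. Arid3b-null replicate 2 lay within the wild-type range and the other Arid3b-null arrays above it. The fitted change of 0.28 ± 0.19 (log2, SE) did not pass (limma adjusted p = 0.323), with a 95% interval of 0.885-fold to 1.66-fold, and was 0.46 without Arid3b-null replicate 2 (adjusted p = 0.0876).

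Of the transcription factors that bind β-catenin, Lef1 had log2 values of 1.71, 1.73 and 1.53 in Arid3b-null and 1.60, 1.91 and 1.37 in wild type. The Arid3b-null arrays fell inside the wild-type range. The change was 0.03 ± 0.16 (log2, SE; limma adjusted p = 0.903), with a 95% interval of 0.786-fold to 1.33-fold. Its sign turned with the background correction and with the array left out, being -0.10 without wild type replicate 3 and 0.17 without wild type replicate 2. Tcf7 had -0.32, -0.51 and -0.50 in Arid3b-null and -0.92, -0.66 and -0.63 in wild type. These groups did not overlap, but the change of 0.29 ± 0.13 (log2, SE) did not pass (limma adjusted p = 0.133), with a 95% interval of 0.994-fold to 1.51-fold. The other Tcf7 probe gave 0.20 with overlapping groups (adjusted p = 0.366 over all tested probes).

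**Figure D3:**
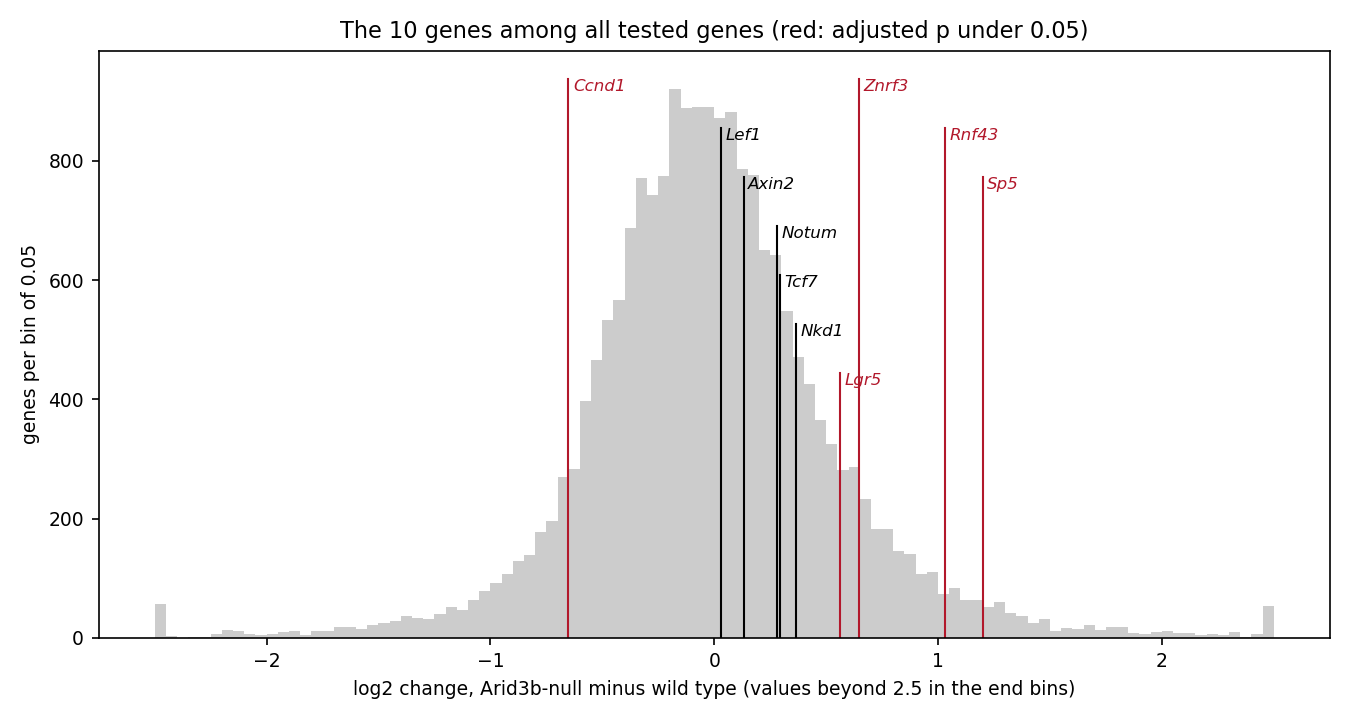
Grey bars count all 19795 tested genes by log2 change, Arid3b-null minus wild type, in bins of 0.05, and lines mark the 10 genes, red where they passed the test. Sp5 at 1.20 and Rnf43 at 1.03 lie in the upper tail, Ccnd1 at -0.65 in the lower part, and Lef1 at 0.03 and Axin2 at 0.13 near the middle.

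Passing the test in one gene and missing it in another does not show that they differ, so each gene was also set against Axin2 on the same array, a comparison that no scaling of whole arrays can move. Axin2 was chosen for this after its values were seen. The log2 ratio to Axin2 was higher in Arid3b-null by 1.07 for Sp5, 0.90 for Rnf43, 0.51 for Znrf3, 0.43 for Lgr5 and 0.16 for Tcf7, while the difference was -0.78 for Ccnd1, each with groups that did not overlap. The ratios of Nkd1 (0.23), Notum (0.15) and Lef1 (-0.10) overlapped. How many of all tested genes separate in their ratio to Axin2 was not counted, and 46.2% of them separate in their own values. The count of separated ratios is therefore not read as a result about these genes. With 3 arrays against 3, the smallest two-sided p of the exact permutation test is 0.1, and each of the 6 separated ratios reached it (0.15 adjusted over the 9 ratios). The test can therefore not pass 0.05 here.

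Across the 6 arrays, genes with values among the most like those of Axin2 by Pearson's r were Mettl4 (0.980), F10 (0.976), Pdzd2 (0.972) and Susd6 (0.967), named without a claim on function. None of these 4 passed in limma, with log2 changes of 0.09 to 0.19. The 6 values share 2 groups and the arrays' scaling. F10 has another probe, which fell 1.42-fold (limma adjusted p = 0.0198 over all tested probes). That probe averaged -2.42 in Arid3b-null and -1.91 in wild type, far below the 9.22 and 9.06 of the probe used. Which of them reports F10 was not tested.

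The pathway around these genes was read through lists of named genes. Each count of called genes in a list stands beside 13.6% called higher and 12.9% lower over all tested genes. Each count at an unadjusted p under 0.05 stands beside 7938 of all 19795 tested genes in either direction. Of 21 tested genes in a list of 24 other reported Wnt targets, 9 rose, 0 fell (2 at an unadjusted p under 0.05 in limma) and 12 did not pass, with a median log2 change of 0.37. Fgf9, a growth factor, rose 2.10-fold and Mycn, a growth-promoting transcription factor, 1.81-fold. Of the 9, 8 were well above background on all 6 arrays. The exception is Dkk4, a secreted Wnt inhibitor, which entered the test only through the Arid3b-null arrays and stood clear of background on 2 of 3 wild-type arrays. Its signal read 3.09-fold higher, and 1.46-fold once normexp took the array median as background (limma adjusted p = 0.0178). Tbx6, a transcription factor of presomitic mesoderm, rose 3.15-fold on the probe that was brighter over all 6 arrays. Its other probe read 0.896-fold and did not pass (limma adjusted p = 0.505 over all tested probes). In wild type the probe used was the dimmer (-3.19 against -2.83), so it was picked through the Arid3b-null arrays, where it was high. The direction of Tbx6, and its place among the 9, thus rests on 1 of 2 probes.

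A list of 27 tested genes holds the parts that make and release Wnt ligands, the co-receptors and the parts that carry the signal inside the cell. Of these, 2 rose, 5 fell and 20 did not pass, with a median of -0.07. Over all tested genes, 13.6% were called higher, 12.9% lower and 26.6% in either direction. Porcn, the enzyme that attaches the lipid to Wnt ligands, rose 2.22-fold. The other that rose is Wls, which carries ligands to the cell surface and is named here after its values were seen. Apc2, a neural relative of the tumour suppressor Apc, fell 3.69-fold. Btrc, a ubiquitin ligase subunit that marks β-catenin for destruction, fell 2.02-fold, and Bcl9, a co-activator that binds β-catenin, fell 1.63-fold (limma adjusted p = 0.0504 without Arid3b-null replicate 3 and 0.0623 without a filter on dim probes). Early-neuron markers moved beside Apc2: 10 of 10 fell, and their summed linear level was 1.93 to 2.31 on Arid3b-null arrays against 10.6 to 12.8 on wild-type arrays, in units of the array's 75th percentile, with all 10 well above background on all 6 arrays. Their part in the result was not tested.

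R-spondins and the other Lgr receptors act with Lgr5 on Rnf43 and Znrf3. Of 5 tested R-spondins and Lgr receptors, 0 rose in the limma fit (1 at an unadjusted p under 0.05), 1 fell and 4 did not pass. Over all 19795 tested genes, 7938 had an unadjusted p under 0.05 in either direction. With the slide as a block 1 rose, the R-spondin Rspo2 (0.52, limma adjusted p = 0.0413, against 0.0866 without the block), named after its values were seen. Rspo3, a secreted R-spondin, fell 1.55-fold (limma adjusted p = 0.0187), a call lost without Arid3b-null replicate 1 or wild type replicate 1 or 2 (0.0532, 0.0614 and 0.0575) and without a filter on dim probes (0.0750). Of 8 tested paralogues of the 10 genes, 0 passed in that limma fit (1 at an unadjusted p under 0.05), and the median change was 0.02. Nkd2, the paralogue of Nkd1, averaged -0.50 ± 0.17 in Arid3b-null and 0.03 ± 0.35 in wild type (log2, SD, n = 3 each). The groups did not overlap, and its change of -0.52 missed the threshold (limma adjusted p = 0.0949) but passed with the slide as a block (0.0425), and its other probe passed over all tested probes (-0.60, adjusted p = 0.0311). Ccnd2 and Ccnd3, the paralogues of Ccnd1, read 0.02 and 0.06 and did not pass.

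**Figure D4:**
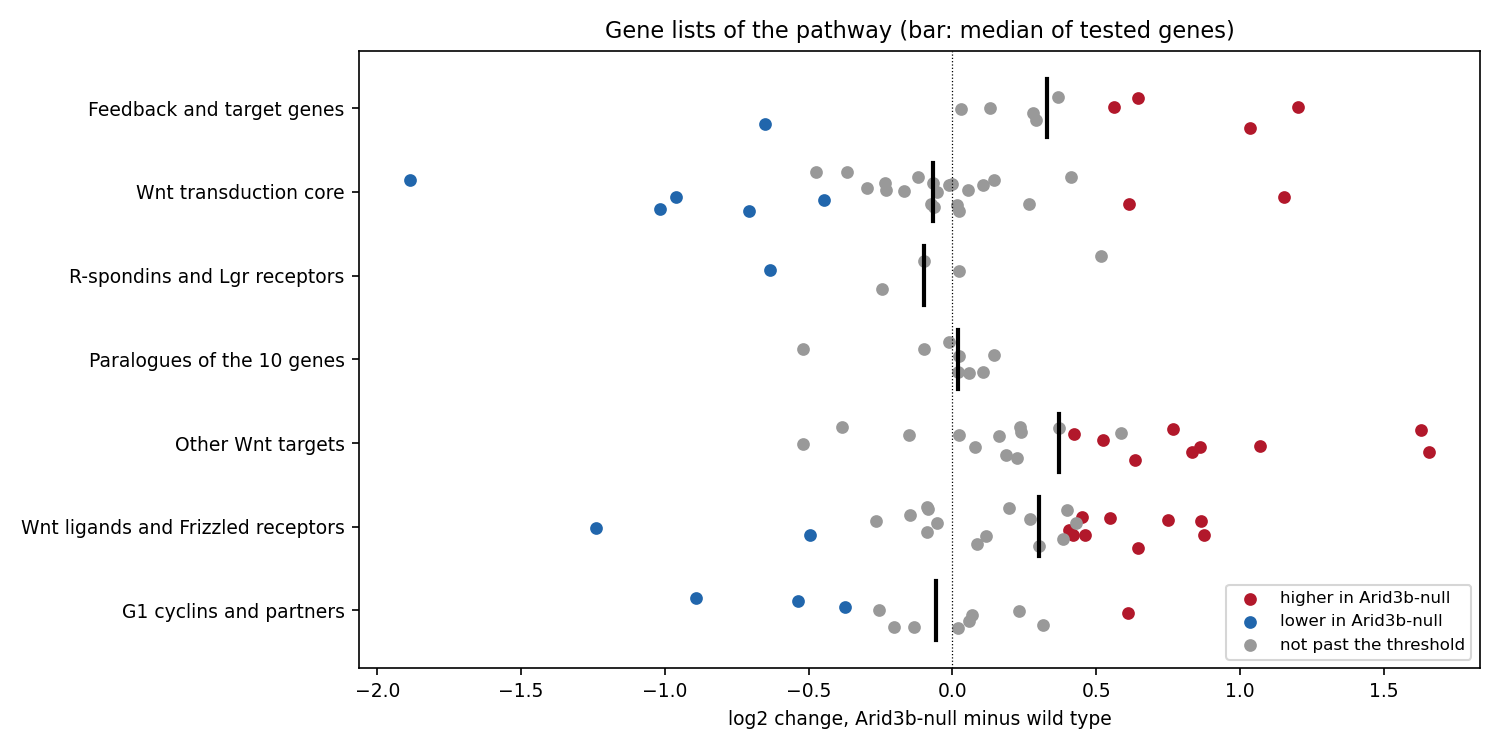
Each point is a tested gene with its log2 change, Arid3b-null minus wild type, on the x axis, grouped by list and coloured by the test, and black bars are medians. The medians are 0.33 for the feedback and target genes, 0.37 for other Wnt targets and 0.30 for ligands and Frizzled receptors, and lie between -0.10 and 0.02 for the other lists.

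Of 25 tested Wnt ligands and Frizzled receptors, 9 rose, 2 fell and 14 did not pass (median 0.30). With the slide as a block, 4 rose and 2 fell in limma. The shares of 13.6% higher and 12.9% lower belong to the fit without the block. The total called over all genes with the block is given in the last section. The 5 rises lost were those of Wnt1 and of the receptors Fzd1, Fzd2, Fzd7 and Fzd8 (limma adjusted p = 0.0748, 0.0508, 0.0568, 0.0730 and 0.0616), named after their values were seen, so no Frizzled passed there. The ligand genes Wnt10a, Wnt9a and Wnt6 rose 1.84-fold, 1.82-fold and 1.68-fold, and Wnt16 fell 2.36-fold. Wnt6 is made by surface ectoderm, and surface-epithelium markers moved with it: 7 of 10 rose, 0 fell, and their summed level was 58.5 to 69.0 on Arid3b-null arrays against 25.4 to 37.8 on wild-type arrays. For limb ectoderm, 3 of 8 markers rose and 0 fell, with sums of 2.73 to 3.39 in Arid3b-null and 2.39 to 2.46 in wild type. For the tail bud and presomitic mesoderm, 6 of 10 markers passed the filter, 2 rose and 2 fell, and the sums were 1.96 to 2.34 in Arid3b-null and 2.94 to 3.71 in wild type. Msgn1, Cdx4, Wnt3a and Fgf17 of that list were not well above background on all arrays of either group. The 2 that fell were Dll3 (wild-type log2 level 0.77, change -1.82) and Nkx1-2 (-0.68 and -0.99), named after their values were seen. The 2 that rose were T (wild-type log2 level -4.05, change 0.83), also named after its values were seen, and Tbx6 (-3.19 and 1.66). Both are counted among the other Wnt targets that rose as well, and the rise of Tbx6 rests on 1 of its 2 probes. The trunk piece ended at somite 15, and these sums are not a measure of tail bud tissue. Limb mesenchyme markers (3 rose, 1 fell) summed to 26.2 to 28.9 in Arid3b-null and 21.8 to 23.5 in wild type. Somite markers (0 rose, 3 fell) summed to 19.5 to 23.4 in Arid3b-null and 22.4 to 23.7 in wild type. Endothelial markers (1 rose, 0 fell) summed to 9.52 to 12.2 in Arid3b-null and 11.6 to 15.2 in wild type, and erythroid markers (0 rose, 2 fell) to 541 to 654 in Arid3b-null and 692 to 902 in wild type. The part of these cell types in the changes of the 10 genes was not tested.

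Around Ccnd1, 12 genes of the G1 step were tested, of which 1 rose, 3 fell and 8 did not pass. Over all tested genes, 13.6% were called higher and 12.9% lower. Ccne1, cyclin E1, fell 1.85-fold, and its other probe read 1.61-fold lower without passing (limma adjusted p = 0.0911 over all tested probes). Cdkn1c, an inhibitor of these kinases, fell 1.45-fold, a call lost without Arid3b-null replicate 1 or wild type replicate 1 or 2 (limma adjusted p = 0.0527, 0.0586 and 0.0519), without a filter on dim probes (0.0732), in the deposited value table (0.0542) and under normexp with quantile normalization (0.0550). Cdk6 rose 1.53-fold, lost without Arid3b-null replicate 1 or 3 or wild type replicate 2 or 3 (0.0555, 0.0557, 0.0552 and 0.0507), without a filter on dim probes (0.0728) and under normexp with the array median as background (change 0.22, adjusted p = 0.239), the same with quantile normalization (0.18 and 0.155) and spots of high background left out (0.13 and 0.564). Cdk2, the partner of cyclin E, fell 1.29-fold, a call lost with any 1 array left out (0.0637 to 0.127) and with the slide as a block (0.0628), among others. Neural progenitor markers moved beside Ccnd1, with 6 of 10 lower, 0 higher and sums of 25.8 to 31.0 on Arid3b-null arrays against 60.5 to 64.9 on wild-type arrays. Their part in the fall of Ccnd1 was not tested.

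The choice of processing moved these genes unequally. Sp5, Rnf43 and Ccnd1 passed in 16 of 17 alternatives each, Znrf3 in 11, Lgr5 in 10 and Nkd1 in 3, and Axin2, Lef1, Tcf7 and Notum in 0. The setting that ended every call was normexp with each spot's own local background. There 0 of the 10 genes passed in limma and 1 had an unadjusted p under 0.05. Over all 19795 genes, 2 were called and 1905 had an unadjusted p under 0.05. Local background reached 34802 units beside array medians of 42 to 44. With the 30 spots whose background exceeded 100 units left out, an alternative added after the data were seen, 5 of the 10 passed, namely Sp5, Rnf43, Znrf3, Nkd1 and Ccnd1.

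**Figure D5:**
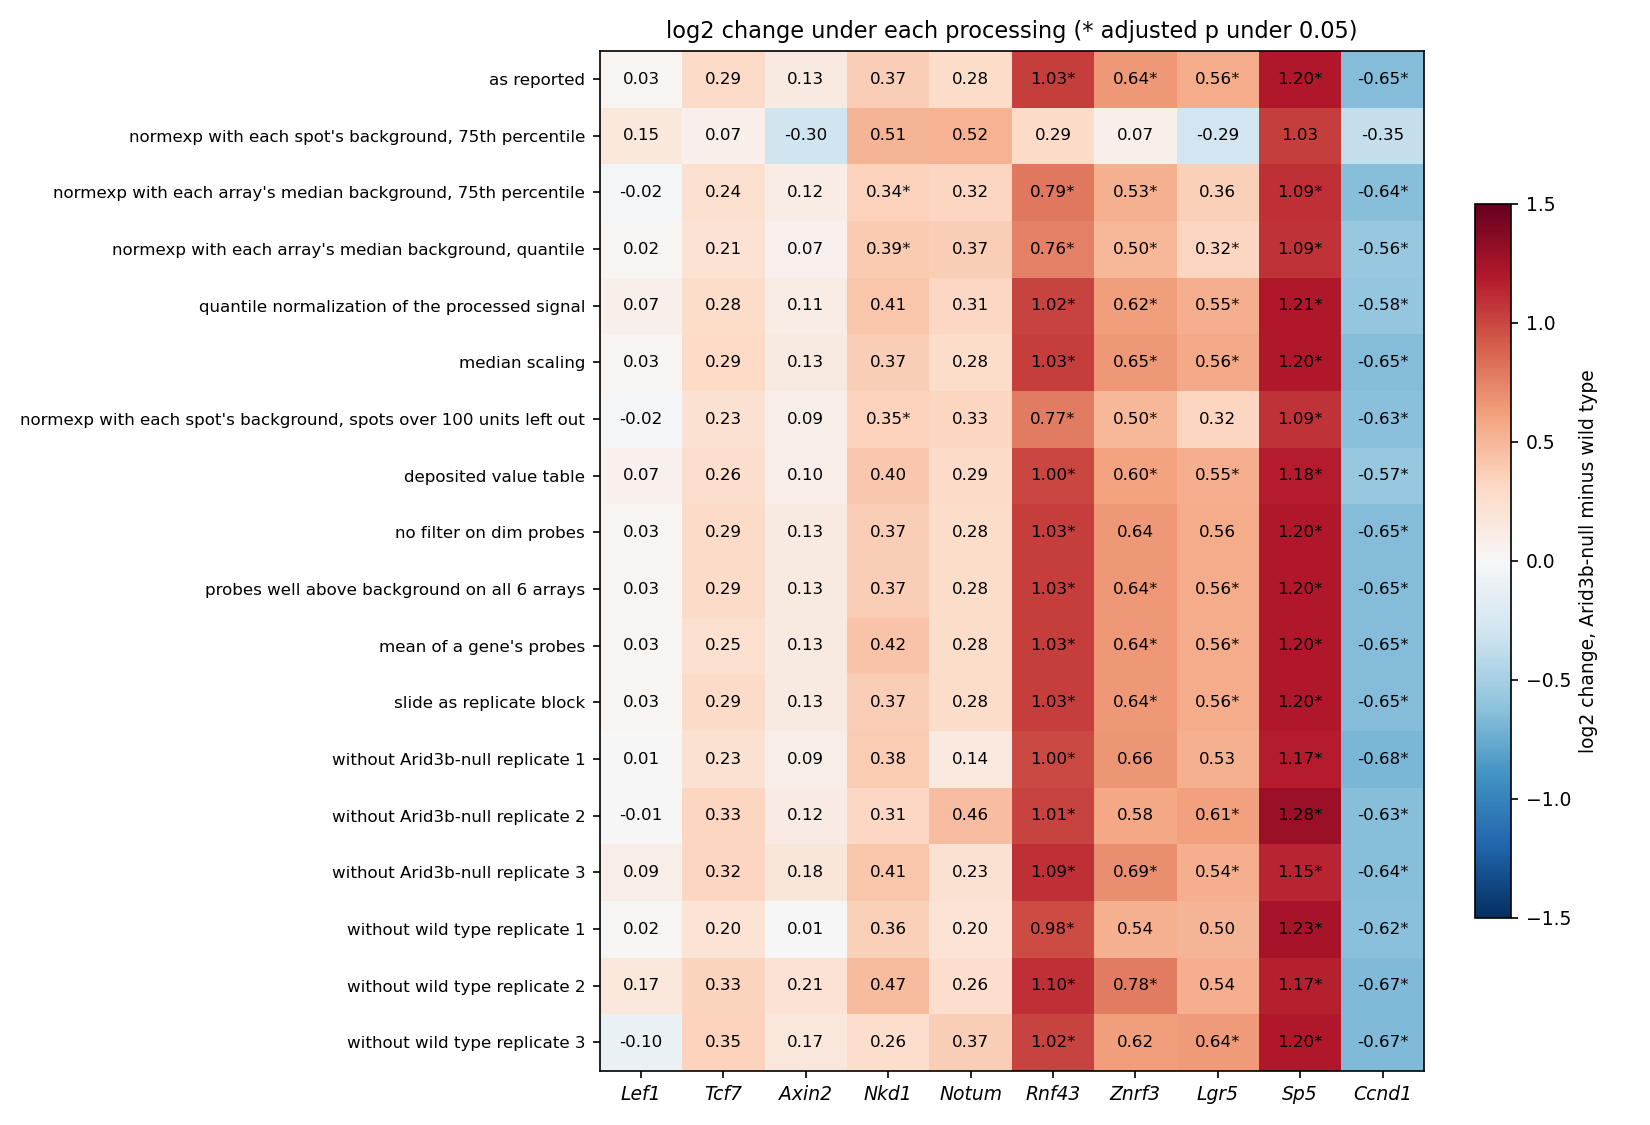
Rows are the reported processing and its alternatives, columns the 10 genes, and each cell gives the log2 change, Arid3b-null minus wild type, with a star where the adjusted p was under 0.05. Sp5, Rnf43 and Ccnd1 carry a star in every row but the second, normexp with each spot's background, where no gene does.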

How the data were processed

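RNA of Arid3b-null and wild-type embryonic trunks was labelled with Cy3 and hybridised to one-colour Agilent arrays, 3 per group, per the labels' protocols. The deposited scanner files hold intensity values, the background-subtracted processed signal and the median signals of spot and background, from Agilent Feature Extraction 10.7.3.1 (protocol GE1_107_Sep09, design 026655), per the file headers. The deposited value table holds log2 values of 24181 probes with equal medians (6.77). How it was normalized is not given in these sources, its columns correlated at 0.999 to 1.00 with the scanner values, and it served as an alternative.

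Outlier marks removed 100 to 169 non-control spots on each array, and the remaining spots of a probe were averaged. Probes were named by RefSeq accession (assembly GRCm38.p6, used for names and promoter sequence, while the headers name mm9). Of 39429 probes, 26424 had 1 symbol and 13005 none. The log2 processed signal was scaled by subtracting the array's 75th percentile. Testing required a probe to be well above background throughout 1 group or both (24423 probes), and a gene was its brightest tested probe (19795 genes). The fit was limma 3.58.1 (lmFit, eBayes) in R 4.3.3 on the two-sided contrast of Arid3b-null less wild type. P-values were adjusted by Benjamini-Hochberg across all genes, or across all probes where a second probe is given. The number of arrays limits precision.

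The genes described and all lists were chosen with earlier results of these data known. Named besides the 10 are Arid3b, up to 4 called genes per pathway list with the smallest adjusted p (1 where none passed) and the 5 genes most like Axin2, of which 1 is not reported here. Ccnd2, Ccnd3 and second probes were named in addition. Same-numbered arrays share a slide, per the file headers, so the numbers pair the arrays. Their deviations from the group means correlated at 0.163, 0.387 and 0.278. Between arrays of different numbers these correlations were at most 0.117, 0.0155 and -0.160, so the margin was narrow for number 1. Nothing states whether pools came from separate litters. The mean signal planned for normexp (offset 50) is not a column of the files used here, and the median signal took its place. On simulated data for this comparison with 19775 genes, log2 changes of 0.5, 1 and 2 were given to 67, 67 and 66 genes. They were recovered in 4.48%, 56.7% and 95.5%, and 7.14% of calls were false. Recovery after adjustment depends on the share of genes that change, and 26.6% of tested genes were called in the data. These rates therefore do not carry over to the calls reported here. Alternatives changed background correction, normalization, filter, probe choice, block and arrays.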

Additional observations from a re-analysis of the deposited data

How the results depend on the processing

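Over 17 alternatives the main count of 5 of 10 genes lay at 5 except in the following. Under normexp with each spot's own background, 0 of the 10 genes, 0 genes of the pathway lists (32 as reported) and 2 of all genes (5256 as reported) were called in limma, with 1, 14 and 1905 at an unadjusted p under 0.05, and Arid3b read -1.38 (limma adjusted p = 0.298). In that setting Axin2 read -0.30, Lgr5 -0.29, Mettl4 -0.39, Pdzd2 -0.55, Dkk4 -0.48, Wnt9a -0.038 and Cdk6 -0.79, opposite in sign to the values reported. With the 30 spots of high local background left out, 5 genes, 27 genes of the pathway lists and 4085 of all genes were called. Without a filter on dim probes more probes were tested, for 32530 genes. In that fit 3 of the 10, 13 of 99 genes of the pathway lists and 2286 of the 32530 genes were called. Under normexp with median background and quantile normalization, 6 of the 10, 28 of the pathway lists and 4920 of all genes were called. With 1 array left out, 3 to 5 of the 10 genes, 16 to 23 genes of the pathway lists and 2865 to 3937 of all genes were called, and Arid3b read -1.82 to -1.52. The low of 3 of the 10 came when replicate 1 of Arid3b-null or of wild type was left out. Without Arid3b-null replicate 2, 3431 of all genes were called, which is within that range. Lef1 turned to -0.021 under normexp with median background and to -0.016 with spots left out, and with 1 array left out it lay between -0.10 (no wild type replicate 3) and 0.17 (no wild type replicate 2), being -0.0061 when Arid3b-null replicate 2 was dropped. F10 read -0.55 in the deposited value table and -0.17 as the mean of its probes, and Mettl4 lay between -0.0019 (no wild type replicate 1) and 0.13 (no Arid3b-null replicate 3). The cause of these shifts was not tested. With the slide as a replicate block, 5 of the 10, 26 of the pathway lists and 4776 of all genes were called, and among genes named by rule the block changed the call of Nkd2 and Cdk2 and of no other. Among the other genes of the pathway lists it changed the calls of Wnt1, Fzd1, Fzd2, Fzd7, Fzd8, Rspo2, Bmp4 and Ctnnbip1. Planned blocks by slide and by replicate number are the same fit. Low signal over background limits what can be read from Lgr5, Dkk4 and Cdk6, and the size of changes in other dim genes. Under normexp with the array median as background, Rnf43 read 1.73-fold, Znrf3 1.44-fold, Wnt9a 1.51-fold and Wnt10a 1.53-fold higher. Wnt16 read 1.61-fold lower there, and all of these were still called.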
